A study of Mus musculus with 15 samples.

Results

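A set of 38 genes of sugar breakdown and of the response to low oxygen was followed through 5 times of a wounding course in mouse skin. The members were taken by gene symbol: 2 glucose transporters, 16 glycolytic enzymes, 2 lactate transporters, 3 regulators of glycolytic flux, the 2 oxygen-sensitive alpha subunits of hypoxia-inducible factor (HIF) and 13 genes known as HIF targets. All 38 were among the 30281 named genes of each library and all passed the filter on low counts, which left 17136 genes for testing. The mice were C57BL/6, and skin was taken on day 0, 1, 3, 5 or 7, for 3 libraries a time. The labels attach the wound to every library, day 0 included, and name no genotype, drug, age or sex, nor whether a time's 3 libraries are 3 mice. If they are not, the p-values do not measure the spread between single mice. Library totals ran from 37995791 to 60347424 estimated counts. Levels are given in CPM, a gene's counts relative to its library's total, after TMM scaling, which evens out differences in library composition. A gene was called changed at an adjusted p under 0.05 by the quasi-likelihood test of edgeR, adjusted over all genes tested by the Benjamini-Hochberg method. Errors of log2 fold changes are standard errors and those of levels are SDs over 3 libraries. In whole tissue, fewer cells of a type and less RNA per cell cannot be told apart.

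Glycolysis splits glucose into pyruvate in the cytosol, and lactate dehydrogenase turns pyruvate into lactate, which leaves the cell through monocarboxylate transporters. HIF pairs an unstable alpha subunit with a stable partner. Prolyl hydroxylases of the Egln family use oxygen to mark the alpha subunit for destruction, so it builds up when oxygen is short, and it then switches on glucose transporters, most glycolytic enzymes and its own hydroxylases. Control is largely at the protein, so the mRNA of Hif1a is not a measure of HIF activity. Wounds are known for low oxygen where vessels are cut, and neutrophils and macrophages that enter them rely on glycolysis.

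HIF binds DNA at a short core that reads ACGTG or GCGTG on either strand. RefSeq promoter windows of 300 bases (GRCm38.p6, from 250 bases before to 50 after the start of transcription) were at hand for 34 of the 38 members. ACGTG was in 50.9% of the 55 member windows and in 19.6% of all 32851 windows. GCGTG was in 56.4% and 32.4% of them. The palindrome CACGTG, which contains ACGTG and is bound by other factors too, was in 12.7% and 7.15%. Some genes have more than 1 window. By gene, 24 of the 34 members had ACGTG and 22 had GCGTG in at least 1 window, which was not counted over all genes. The median GC content was 63.3% in the member windows and 52.7% in all windows, and its part in these shares was not tested. The windows of 4 genes whose changes are described below are printed on the strand of the gene, with each ACGTG or GCGTG, or its reverse complement, in capitals. Slc2a1 lies at chr4:119108495-119108794 on the plus strand, Slc16a3 at chr11:120948817-120949116 on the plus strand, Adm at chr7:110627407-110627706 on the plus strand and Egln3 at chr12:54203825-54204124 on the minus strand.
Slc2a1: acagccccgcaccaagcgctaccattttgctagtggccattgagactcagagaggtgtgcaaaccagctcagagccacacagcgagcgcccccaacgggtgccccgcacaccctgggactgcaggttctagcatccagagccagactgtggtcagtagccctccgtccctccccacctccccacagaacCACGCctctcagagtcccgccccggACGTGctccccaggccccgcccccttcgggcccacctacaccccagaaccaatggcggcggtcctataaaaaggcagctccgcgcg
Slc16a3: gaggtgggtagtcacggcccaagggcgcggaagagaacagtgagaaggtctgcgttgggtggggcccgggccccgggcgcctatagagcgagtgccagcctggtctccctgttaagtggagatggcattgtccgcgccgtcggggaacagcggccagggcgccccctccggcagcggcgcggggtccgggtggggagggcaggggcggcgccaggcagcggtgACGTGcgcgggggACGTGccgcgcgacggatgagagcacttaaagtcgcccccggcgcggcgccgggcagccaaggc
Adm: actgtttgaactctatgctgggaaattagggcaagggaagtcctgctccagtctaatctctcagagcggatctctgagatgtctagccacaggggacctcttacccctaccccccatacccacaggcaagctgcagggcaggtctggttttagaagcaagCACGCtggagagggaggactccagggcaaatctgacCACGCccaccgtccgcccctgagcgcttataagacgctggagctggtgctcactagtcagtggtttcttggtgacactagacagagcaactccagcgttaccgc
Egln3: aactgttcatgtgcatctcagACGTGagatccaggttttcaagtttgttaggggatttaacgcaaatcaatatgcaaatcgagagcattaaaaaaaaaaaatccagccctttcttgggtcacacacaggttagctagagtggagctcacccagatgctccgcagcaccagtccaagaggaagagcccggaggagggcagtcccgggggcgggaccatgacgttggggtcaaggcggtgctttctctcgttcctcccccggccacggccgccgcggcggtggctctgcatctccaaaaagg
The Slc2a1 window holds 1 ACGTG and 1 GCGTG, that of Slc16a3 holds 2 ACGTG, that of Adm 2 GCGTG and that of Egln3 1 ACGTG. A match is a run of letters, not a measured binding site.

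The members did not move as 1 group. An F test of the 4 differences from day 0 called 16 of the 38 members, and 13.9% of all genes tested. At day 1, 11 members rose and 1 fell against day 0, where 4.22% of all genes rose and 3.36% fell. At day 3, 6 rose and 0 fell, where 0.595% of genes rose and 0.193% fell. At day 5, 1 rose and 0 fell, where 0.21% rose and 0.292% fell. At day 7, 3 rose and 1 fell, where 3.1% rose and 3.94% fell. These counts rest on few libraries. The 12 calls at day 1 dropped to 2 and 3 without day 0 replicate 2 or 3, and to 4, 7 and 6 without day 1 replicate 1, 2 or 3. The 6 calls at day 3 dropped to 0 without day 0 replicate 2 or 3, to 0 again without replicate 1 or 2 of day 3, and to 2 without day 3 replicate 3. At day 1, 17 of the 38 members had every library above every day 0 library, as did 19.8% of all genes. At day 3 it was 20 members and 13.1% of all genes, at day 5 it was 5 and 12.3%, and at day 7 it was 6 and 13.9%. Every library lay below every day 0 library for 2 members at day 1, 0 at day 3, 3 at day 5 and 6 at day 7, as for 18%, 12.4%, 13.8% and 15.3% of all genes. In the counts as deposited, 12 of the 16 glycolytic enzymes had their highest mean at day 1 or day 3, while 7 of the 13 HIF targets had theirs at day 7. For Egln3, Bnip3l, Ak4, Higd1a and Hilpda the next highest mean was close, within the SDs. Egln3 had 64.1 ± 3.6 CPM at day 7 and 62.7 ± 7.5 CPM at day 3. For Ankrd37 and Kdm3a it was further off. Peak days were not counted over all genes. The 4 comparisons against day 0 share the same day 0 libraries.

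**Figure D1:**
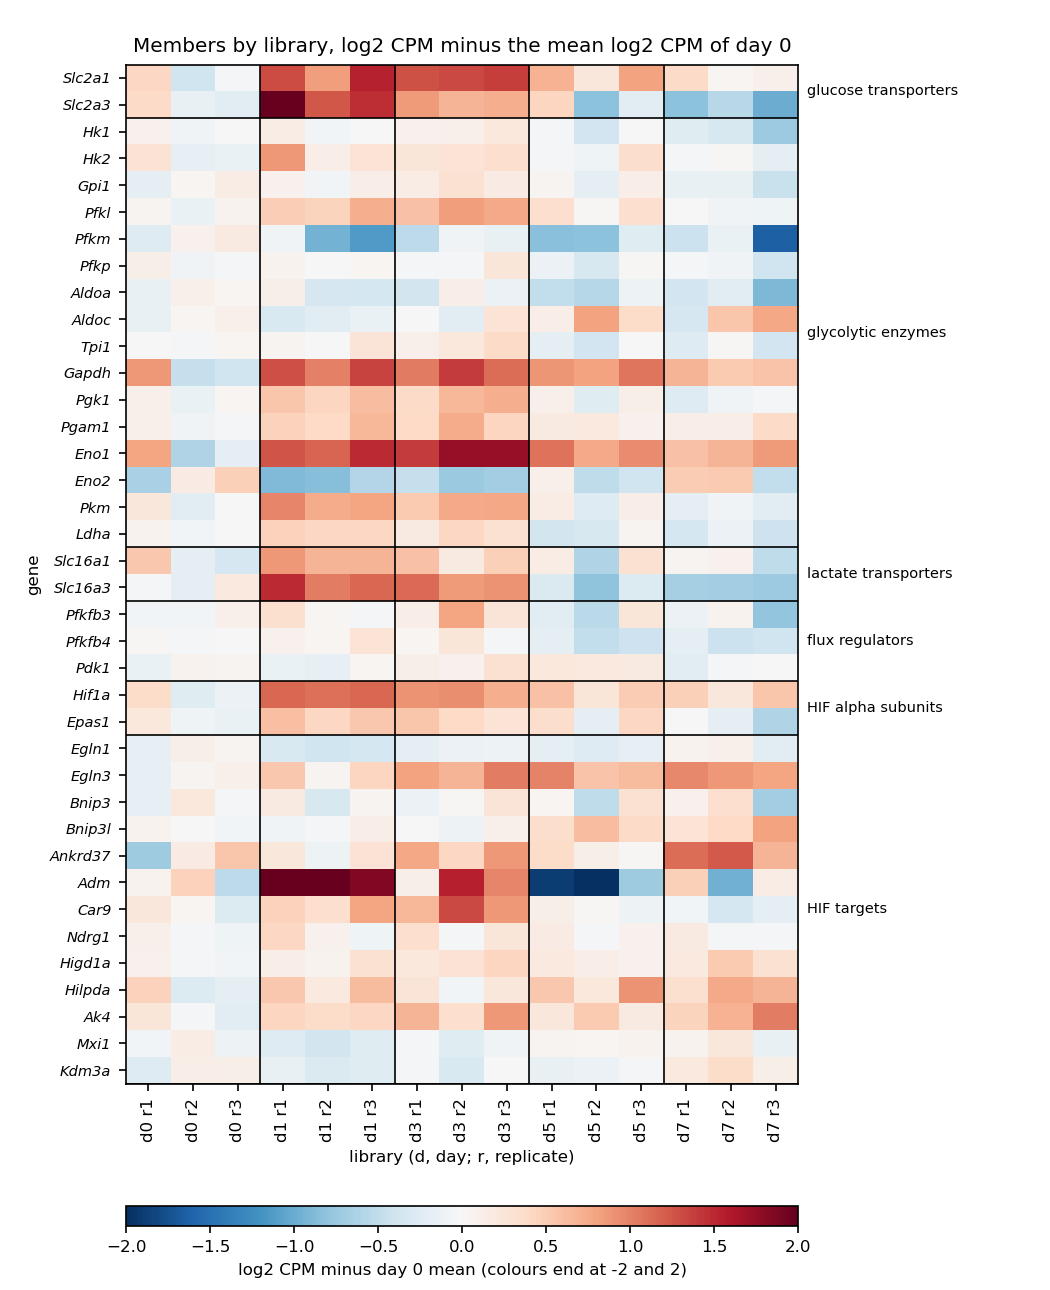
Each row is a gene and each column a library in order of day. Colour gives log2 CPM minus the gene's mean log2 CPM at day 0, on a scale that ends at -2 and 2. Values beyond it are cut off, such as Adm at 50.1 and 65.4 CPM and Slc2a3 at 44.7 CPM, all at day 1. The transporters, Hif1a and several enzymes are red at day 1 and day 3. Egln3 is red from day 3 on, and Bnip3l at day 5 and day 7.

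Gapdh and Eno1 were read together with their near-identical copies, which held large counts in 2 day 0 libraries. Gapdh, the glyceraldehyde 3-phosphate dehydrogenase, held 923 CPM in day 0 replicate 1, but 372 CPM in replicate 2 and 384 CPM in replicate 3. In replicates 2 and 3 the processed pseudogene Gm13394, 99.9% identical to Gapdh over 1000 aligned bases, held 39884 and 54710 counts, and it held 45 to 293 counts in the other 13 libraries. Gm10359, Gm12671 and Gm7336 did the opposite: each held 0 counts in those 2 libraries and the same count as the others of the 3, between 3517 and 11334, in each other library. With its 80 copies added, Gapdh came to 1388, 1394 and 1485 CPM in the day 0 libraries, which are then close together. Eno1, an enolase, showed the same pattern: its 323, 123 and 165 CPM at day 0 become 323, 246 and 315 CPM with its copies added. Why 2 libraries split these reads differently was not tested. All other members had copies that held at most 0.253% of the member's own count, except Pgam1, whose copy Pgam1-ps2 reached 10.2%. Results for Gapdh, Eno1 and Pgam1 are therefore also given with the copies added, by summing their counts before the same fit, while counts of called members use the counts as deposited unless said otherwise. With copies added, 11 members in place of 12 were called at day 1 against day 0, 24 in place of 21 at day 7 against day 1 and 17 in place of 16 over time.

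**Figure D2:**
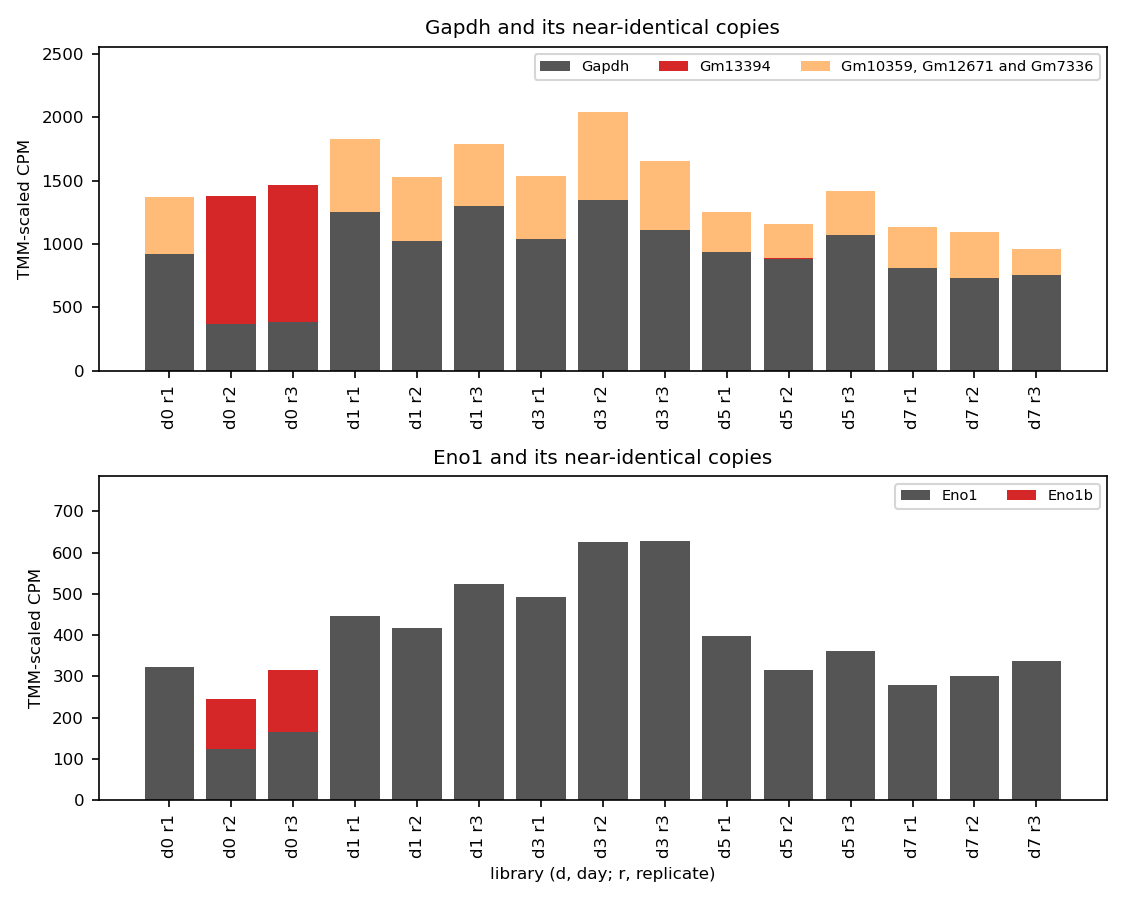
Bars give TMM-scaled CPM in each library for Gapdh (upper panel) and Eno1 (lower panel) in grey, with the named copies stacked on top. In day 0 replicates 2 and 3 the grey part of Gapdh is 372 and 384 CPM and the summed height is near that of day 0 replicate 1.

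The other day 0 library stood apart in another way. Summed over 8 neutrophil markers, day 0 replicate 1 had 290 CPM, where the others of that day had 74.1 and 95.7 CPM. In 8 keratinocyte markers it had 9287 CPM, where the others had 5322 and 4807 CPM. With replicate 1 as the only day 0 library, no member was called at day 1, 3 or 5, and at day 7 only Ankrd37 was called. In that fit, which takes the lone library to vary as the other times do, the day 1 log2 fold changes were 0.85 for Slc2a1, 1.27 for Slc16a3 and 0.78 for Hif1a, against 1.22, 1.22 and 1.11 with all 3 libraries. Without day 0 replicate 1, 11 members were called at day 3, 3 at day 5 and 7 at day 7. That fit rests on the other day 0 libraries, where near-identical copies of Gapdh and Eno1 held large counts. Its 3 calls at day 5 were Gapdh, Eno1 and Hif1a, and Gapdh and Eno1 were also among its calls at day 3 and day 7. With copies added and all 3 day 0 libraries, neither Gapdh nor Eno1 was called at day 5 or day 7.

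Both glucose transporters rose early. Slc2a1, which encodes GLUT1, the transporter of most tissues and of activated keratinocytes, was at 60.0, 33.9 and 44.4 CPM at day 0, 111, 79.8 and 131 CPM at day 1, and 108, 113 and 117 CPM at day 3. At day 5 it had 72.6, 52.7 and 78.3 CPM, and at day 7 58.4, 46.0 and 48.0 CPM. Each library of day 1 and day 3 lay above each day 0 library, and the day 5 and day 7 libraries overlapped with day 0. Slc2a1 was 2.32-fold higher at day 1 than at day 0 (log2 1.22 ± 0.22, adjusted p = 0.0138) and 2.44-fold higher at day 3 (1.29 ± 0.22, adjusted p = 0.0334). Its day 1 call was made in 3 of 6 fits with 1 library dropped, and its day 3 call in 1 of 6. Slc2a3, which encodes GLUT3, a high-affinity transporter of neurons and leukocytes, had 44.7, 18.04 and 21.2 CPM at day 1, against day 0 levels of 9.94, 6.91 and 6.51 CPM. That is a 3.59-fold rise (1.84 ± 0.36, adjusted p = 0.0156), and day 1 replicate 1 stands far above the other 2. The rise was called in 3 of 6 fits with 1 library dropped. At day 3 it had 13.8, 12.2 and 12.7 CPM, all above day 0, but was not called (0.73 ± 0.35, adjusted p = 0.33). At day 7 it was down to 4.33, 5.20 and 3.85 CPM, all under the day 0 libraries and again not called (-0.80 ± 0.35, adjusted p = 0.16). Per length of transcript, Slc2a3 made up 12.4% ± 1.8 of the pair at day 0, 17.5% ± 6.8 at day 1 and 6.82% ± 1.48 at day 7 (SD, n = 3 each).

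Neutrophil markers were high at day 1 and day 3 as well. The 8 markers summed to 74.1 to 290 CPM at day 0, 1063 to 1582 CPM at day 1, 663 to 1103 CPM at day 3, 153 to 435 CPM at day 5 and 55.1 to 271 CPM at day 7. Of the 8, 7 rose at day 1 against day 0 and all 8 fell at day 7 against day 1. 1 of them was at 0 in at least 1 library. Some other markers were high at the same times. The 8 keratinocyte markers summed to 4807 to 9287 CPM at day 0, 7968 to 15910 CPM at day 1, 12000 to 17300 CPM at day 3, 9520 to 13130 CPM at day 5 and 8388 to 9136 CPM at day 7, and 0 of 8 were called at day 1 and 1 at day 3. The 5 endothelial markers summed to 256 to 285 CPM at day 0, 268 to 378 CPM at day 1 and 410 to 539 CPM at day 3, with 0 called at either. The 8 cell cycle markers summed to 319 to 383 CPM at day 0, 433 to 757 CPM at day 1 and 576 to 715 CPM at day 3, with 3 called higher at day 1 and 0 at day 3. The 6 macrophage markers summed to 2706 to 4225 CPM at day 0, 2538 to 3337 CPM at day 1 and 4042 to 4248 CPM at day 3. They came to 1801 to 3194 CPM at day 5 and 1908 to 3215 CPM at day 7. Against day 0, 0 were called at day 1, 3 or 5. At day 7, 3 of the 6 were called lower than at day 0, where 3.94% of all genes fell. The 6 fibroblast markers summed to 40870 to 48590 CPM at day 0 and 19570 to 37120 CPM at day 1, with 1 called higher and 1 lower. The part of any of these markers in the early or later changes of Slc2a1, Slc2a3, Slc16a3, Epas1 and the other members was not tested.

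Only part of the glycolytic enzymes was called higher early, and the calls mark a threshold, not 2 separate groups. As deposited, 12 of the 16 had a log2 change above 0 at day 1. Their median over the 16 was 0.27, and -0.009 over all genes. By the test, 6 of the 16 rose at day 1 and 0 fell, where 4.22% of all genes rose and 3.36% fell. These 6 were Pfkl, Gapdh, Pgk1, Pgam1, Eno1 and Pkm. Pkm, the pyruvate kinase of most non-liver tissues, which makes pyruvate in the last step, had 1295, 1106 and 1144 CPM at day 1, against day 0 levels of 770, 561 and 662 CPM. It rose 1.78-fold (0.83 ± 0.14, adjusted p = 0.0113) with no overlap, and at day 3, with 950, 1113 and 1125 CPM, it just missed the threshold (0.68 ± 0.14, adjusted p = 0.0505). Pfkl, a subunit of phosphofructokinase, the committing step of glycolysis, had 60.0, 58.1 and 70.5 CPM at day 1, against day 0 levels of 44.3, 39.2 and 45.1 CPM (0.55 ± 0.11, adjusted p = 0.016). It was higher again at day 3, at 64.4, 76.1 and 72.6 CPM (0.73 ± 0.11, adjusted p = 0.0329). Pgk1, the phosphoglycerate kinase that makes the first ATP of the pathway, had 413, 380 and 436 CPM at day 1, against day 0 levels of 302, 258 and 289 CPM (0.53 ± 0.13, adjusted p = 0.0289). With 1 library dropped, the day 1 rise was called in 5 of 6 fits for Pkm, 3 for Pfkl and 1 for Pgk1, and the day 3 rise of Pfkl in 2.

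Gapdh lost its call when its copies were added. As deposited it was 2.13-fold higher at day 1 than at day 0 (1.09 ± 0.28, adjusted p = 0.0389). With copies it had 1847, 1545 and 1809 CPM at day 1, against day 0 levels of 1388, 1394 and 1485 CPM, a log2 change of 0.29 ± 0.13 (adjusted p = 0.184). At day 5 and day 7 its sign against day 0 turned, to -0.14 ± 0.13 and -0.40 ± 0.13 with copies, where the deposited counts gave 0.78 ± 0.28 and 0.45 ± 0.28, none of them called. Eno1 kept its calls at a smaller size. Against day 0 it rose by 0.65 ± 0.15 at day 1 (adjusted p = 0.024) and by 0.99 ± 0.15 at day 3 (adjusted p = 0.0303) with copies, where the deposited counts gave 1.18 ± 0.27 and 1.52 ± 0.28. Pgam1, the phosphoglycerate mutase that precedes enolase, rose at day 1 with or without its copy (0.48 ± 0.11 with it, adjusted p = 0.0279). With copies added, 5 of the 16 enzymes rose at day 1. As deposited, the day 1 rise was called in 1 of 6 fits with 1 library dropped for Gapdh, 1 for Eno1 and 2 for Pgam1. The day 3 rise of Eno1 was called in 1 of 6.

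Of the 10 enzymes not called at day 1 even as deposited, Ldha came closest. It encodes the A subunit of lactate dehydrogenase and had 941, 902 and 911 CPM at day 1, against day 0 levels of 716, 652 and 675 CPM, without overlap (0.43 ± 0.13, adjusted p = 0.0557). Ldha was called by DESeq2 and by a fit on the libraries of these 2 times. Hexokinase traps glucose in the cell by phosphorylating it. Its form Hk2 had 89.0, 53.8 and 59.5 CPM at day 1, against day 0 levels of 59.9, 43.9 and 44.8 CPM (0.45 ± 0.18, adjusted p = 0.144), and Hk1 changed by 0.03 ± 0.13. Gpi1, Pfkp and Tpi1, for glucose 6-phosphate isomerase, the platelet-type phosphofructokinase and triosephosphate isomerase, differed by 0.05 ± 0.12, 0.04 ± 0.12 and 0.11 ± 0.13. The neuronal forms Aldoc and Eno2 stayed low, at 3.93 to 8.63 CPM and 3.14 to 8.34 CPM over all libraries.

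Pfkm and Aldoa, the main phosphofructokinase and aldolase of skeletal muscle, went another way. Pfkm had 160, 204 and 218 CPM at day 0, 183, 99.8 and 87.6 CPM at day 1, 134, 184 and 174 CPM at day 3, 108, 109 and 163 CPM at day 5, and 143, 175 and 61.8 CPM at day 7. The spread within a time was wide, and the gene was called in no comparison. Aldoa ranged from 763 CPM in day 7 replicate 3 to 1560 CPM in day 3 replicate 2. Although the protocol removes muscle from the skin, 10 skeletal muscle markers summed to 7964, 12350 and 11740 CPM at day 0 and 9655, 6798 and 6967 CPM at day 1. They came to 6663, 10850 and 7660 CPM at day 3, 6210, 4484 and 7421 CPM at day 5, and 7194, 7709 and 2947 CPM at day 7. The library lowest in the markers, day 7 replicate 3, is the lowest in Pfkm and Aldoa too, and the markers' part in these levels was not tested. Per length, Pfkm made up 67.9% ± 4.7 of the 3 phosphofructokinase transcripts at day 0 and 52.1% ± 10.1 at day 1, and Pfkl 11.7% ± 1.5 and 21.8% ± 5.6. Reads of Pfkm, Pfkp, Aldoa, Tpi1 and Gapdh may be shared with genes that overlap them on the opposite strand, since the use of strand is not stated.

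The lactate transporter Slc16a3 rose early and fell below its day 0 level later. It encodes MCT4, which exports lactate from highly glycolytic cells. It had 36.9, 33.3 and 43.1 CPM at day 0, 105, 76.1 and 83.5 CPM at day 1, 82.7, 67.8 and 70.2 CPM at day 3, 30.7, 21.6 and 30.9 CPM at day 5, and 23.8, 23.3 and 22.7 CPM at day 7. The day 1 and day 3 libraries lie above and the day 5 and day 7 libraries below those of day 0, with no overlap. Slc16a3 rose 2.34-fold at day 1 (1.22 ± 0.16, adjusted p = 0.005) and 1.95-fold at day 3 (0.96 ± 0.16, adjusted p = 0.0334), and at day 7 it fell by 0.70 ± 0.16 (adjusted p = 0.0241). The step to day 5 from day 3 was the single call among the members between neighbouring times: Slc16a3 was 2.65-fold lower at day 5 (-1.41 ± 0.16, adjusted p = 0.0159). The day 1 rise was called in all 6 fits that each dropped 1 library of day 1 or day 0. The day 3 rise was called in 2 of its 6 and the day 7 fall in 3 of its 6. Slc16a1, for MCT1, which carries lactate both ways, had 118, 103 and 104 CPM at day 1, against day 0 levels of 93.7, 56.4 and 51.4 CPM (0.69 ± 0.26, adjusted p = 0.116). Per length, Slc16a3 made up 37.5% ± 8.7 of the pair at day 0, 45.2% ± 2.4 at day 1, 46.4% ± 2.2 at day 3, 31.0% ± 2.9 at day 5 and 28.6% ± 4.5 at day 7.

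The flux regulators were not called by edgeR against day 0 at any time, and DESeq2 called Pfkfb4 lower at day 5 and day 7. Pfkfb3 and Pfkfb4 make fructose 2,6-bisphosphate, which activates phosphofructokinase, and Pdk1 keeps pyruvate out of the mitochondrion. Pfkfb3 had 61.3, 96.2 and 66.9 CPM at day 3, against day 0 levels of 53.6, 53.8 and 60.0 CPM, without overlap (0.42 ± 0.24, adjusted p = 0.421). Pdk1 ranged from 43.5 to 62.0 CPM over all libraries. Pfkfb4 lay lower late: its 28.1, 22.7 and 24.0 CPM at day 5 were all under its 32.7, 31.4 and 32.2 CPM at day 0, at an adjusted p of 0.115.

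**Figure D3:**
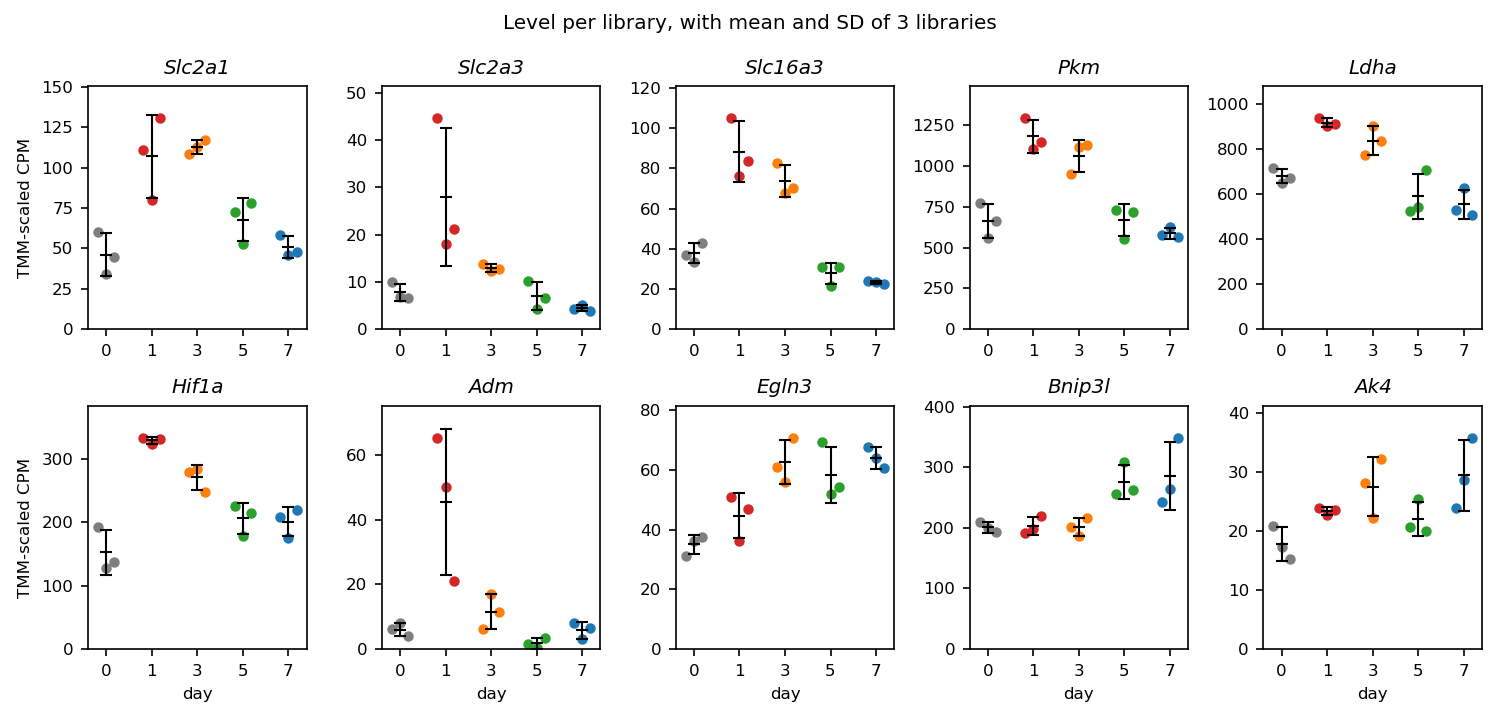
Points are TMM-scaled CPM per library for 10 members by day, with the mean and SD of 3 libraries in black and each axis starting at 0. Slc2a1, Slc16a3, Pkm and Hif1a are high at day 1 and day 3, Adm at day 1, and Egln3 from day 3 on.

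Both HIF alpha subunits were at their highest at day 1. Hif1a had 193, 127 and 138 CPM at day 0, 333, 323 and 332 CPM at day 1, 279, 284 and 248 CPM at day 3, 225, 178 and 214 CPM at day 5, and 208, 175 and 219 CPM at day 7. It was 2.16-fold higher at day 1 than at day 0 (1.11 ± 0.15, adjusted p = 0.00515), a call made in all 6 such fits with 1 library dropped. At day 3 it was 1.77-fold higher (0.83 ± 0.15, adjusted p = 0.0393), a call made in 1 of 6. Epas1 is the HIF-2 alpha gene best known from vessel endothelium. It had 138, 122 and 133 CPM at day 1, against day 0 levels of 106, 86.5 and 83.5 CPM, without overlap. The main fit did not call this difference (0.51 ± 0.18, adjusted p = 0.0867), while DESeq2 and a fit on the libraries of these 2 times did. Per length, Hif1a made up 65.7% ± 2.4 of the pair at day 0 and 74.6% ± 0.9 at day 1.

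Among the 13 HIF targets, 1 rose and 1 fell at day 1, where 4.22% of all genes rose and 3.36% fell. These were the vessel-widening peptide gene Adm, which rose, and Egln1, which fell. Each was called in 1 of 6 fits with 1 library dropped, and neither was called without the filter on low counts, at adjusted p of 0.0554 for Adm and 0.065 for Egln1. Adm, for adrenomedullin, had 65.4, 50.1 and 21.1 CPM at day 1, against day 0 levels of 6.08, 7.996 and 4.05 CPM. It rose 7.54-fold (2.92 ± 0.74, adjusted p = 0.0351), with no overlap and a wide spread within day 1. At day 3 it had 6.33, 17.1 and 11.4 CPM and overlapped with day 0. At day 5 it had 1.56, 0.242 and 3.54 CPM, all under day 0, which was not called (-1.76 ± 0.72, adjusted p = 0.212). Egln1, for the main prolyl hydroxylase, PHD2, fell by 0.35 ± 0.10 at day 1 (adjusted p = 0.047), to 63.7, 59.8 and 61.7 CPM, against 69.8, 85.0 and 81.3 CPM at day 0.

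Egln3, for the prolyl hydroxylase PHD3, rose later and stayed up. It had 31.3, 36.3 and 37.5 CPM at day 0, 50.8, 36.2 and 47.0 CPM at day 1, 61.1, 56.1 and 70.8 CPM at day 3, 69.2, 51.8 and 54.2 CPM at day 5, and 67.8, 63.8 and 60.5 CPM at day 7. From day 3 on each library was above each day 0 library. Against day 0 it rose by 0.84 ± 0.15 at day 3 (adjusted p = 0.0334), 0.74 ± 0.15 at day 5 (adjusted p = 0.0484) and 0.87 ± 0.15 at day 7 (adjusted p = 0.00974). The day 7 rise was called in all 6 fits with 1 library of day 7 or day 0 dropped, the day 3 rise in 1 of its 6 and the day 5 rise in 0 of its 6. Per length, Egln3 made up 37.6% ± 0.9 of the pair Egln1 and Egln3 at day 0. Its share was 49.2% ± 3.7 at day 1, 54.1% ± 2.8 at day 3, 53.5% ± 3.7 at day 5 and 52.8% ± 2.2 at day 7. At day 1 and later this share was above 45.0% in each library, and at day 0 it was at most 38.3%. Egln2, a gene of the same family outside the 38, is left out of the share. It had 79.1 ± 7.1 CPM at day 0 and 71.8 ± 2.9 CPM at day 7.

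At day 7, 3 of the 13 targets rose and 0 fell: Egln3, Bnip3l and Ak4. Of all genes, 3.1% rose. Mitochondrial genes took 8.09% to 9.44% of counts in the day 7 libraries, against 5.29% to 6.30% at day 0 and 6.98% to 7.53% at day 1, with no overlap, and the part of this shift was not tested. Bnip3l, for a protein that marks mitochondria for removal, had 243, 264 and 349 CPM at day 7, against day 0 levels of 210, 199 and 193 CPM (0.51 ± 0.13, adjusted p = 0.0377). Ak4, a mitochondrial adenylate kinase, had 24.0, 28.6 and 35.8 CPM at day 7, against day 0 levels of 20.8, 17.3 and 15.2 CPM (0.73 ± 0.17, adjusted p = 0.0295). For both genes day 7 replicate 3 was the highest library, and day 5 replicate 2, at 308 CPM of Bnip3l, was the highest of its time. These 2 libraries had 9632 CPM (day 5 replicate 2) and 11810 CPM (day 7 replicate 3) over 8 hair follicle markers, where the other 13 had 5.79 to 1070 CPM. Without them Bnip3l differed by 0.34 (adjusted p = 0.0618) and Ak4 by 0.56 (adjusted p = 0.072) at day 7 and neither was called, while Egln3 was, at 0.91 (adjusted p = 0.0151). Ankrd37, an ankyrin repeat gene, had 6.42, 6.87 and 4.72 CPM at day 7, against day 0 levels of 1.81, 3.29 and 4.31 CPM (0.94 ± 0.27, adjusted p = 0.0581). It overlaps Ufsp2 on the opposite strand, whose median count was 2419 where that of Ankrd37 was 196.

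The remaining targets were called by edgeR in at most 1 of the 8 comparisons. Bnip3, the close relative of Bnip3l, had a mean of 78.2 to 83.3 CPM at every time and the F test over time gave it an adjusted p of 0.997. Ndrg1, a stress gene of epithelia, had means of 121 to 138 CPM (adjusted p = 0.671). Car9, a carbonic anhydrase at the cell surface that is widely used as a marker of hypoxia, stayed at 1.61 to 5.16 CPM and was called by the F test over time (adjusted p = 0.0121). Its day 3 libraries, at 3.28, 5.16 and 3.76 CPM, were all above its day 0 libraries, at 2.42, 2.12 and 1.71 CPM, and the difference was not called (0.96 ± 0.21, adjusted p = 0.0592). Hilpda, a lipid droplet protein, and Higd1a, a mitochondrial protein, had day 7 means of 31.1 and 59.5 CPM, against 21.0 and 46.7 CPM at day 0, at adjusted p values of 0.121 and 0.0538. Mxi1, an antagonist of Myc, and Kdm3a, a histone demethylase, differed from day 0 by at most 0.29 on the log2 scale at any time.

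Of the 8 comparisons made, day 7 against day 1 had the most calls among the members: 7 were higher and 14 lower at day 7, where 5.75% of all genes were higher and 8.59% lower. The lower ones were both glucose transporters, both lactate transporters, both HIF alpha subunits, 5 of 16 enzymes (Hk1, Pfkl, Pgk1, Pkm and Ldha), Pfkfb4, Adm and Car9. The higher ones were 6 of 13 HIF targets (Egln1, Egln3, Bnip3l, Ankrd37, Mxi1 and Kdm3a) and the enolase Eno2. All libraries of day 7 lay above those of day 1 for 8 members and below them for 20, as for 15.8% and 17.2% of all genes. The median log2 change was -0.38 over the 16 enzymes and 0.33 over the 13 targets, and 0.03 over all genes. Slc16a3, at 23.8, 23.3 and 22.7 CPM at day 7 and 105, 76.1 and 83.5 CPM at day 1, was 3.80-fold lower (-1.93 ± 0.16, adjusted p = 0.000109). Slc2a3 was 6.27-fold lower (-2.65 ± 0.37, adjusted p = 0.00109), Adm 7.77-fold lower (-2.96 ± 0.74, adjusted p = 0.0204) and Slc2a1 2.11-fold lower (-1.08 ± 0.22, adjusted p = 0.00799). Pkm, at 577, 625 and 562 CPM at day 7 and 1295, 1106 and 1144 CPM at day 1, was 2.01-fold lower (-1.01 ± 0.14, adjusted p = 0.00122).

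**Figure D4:**
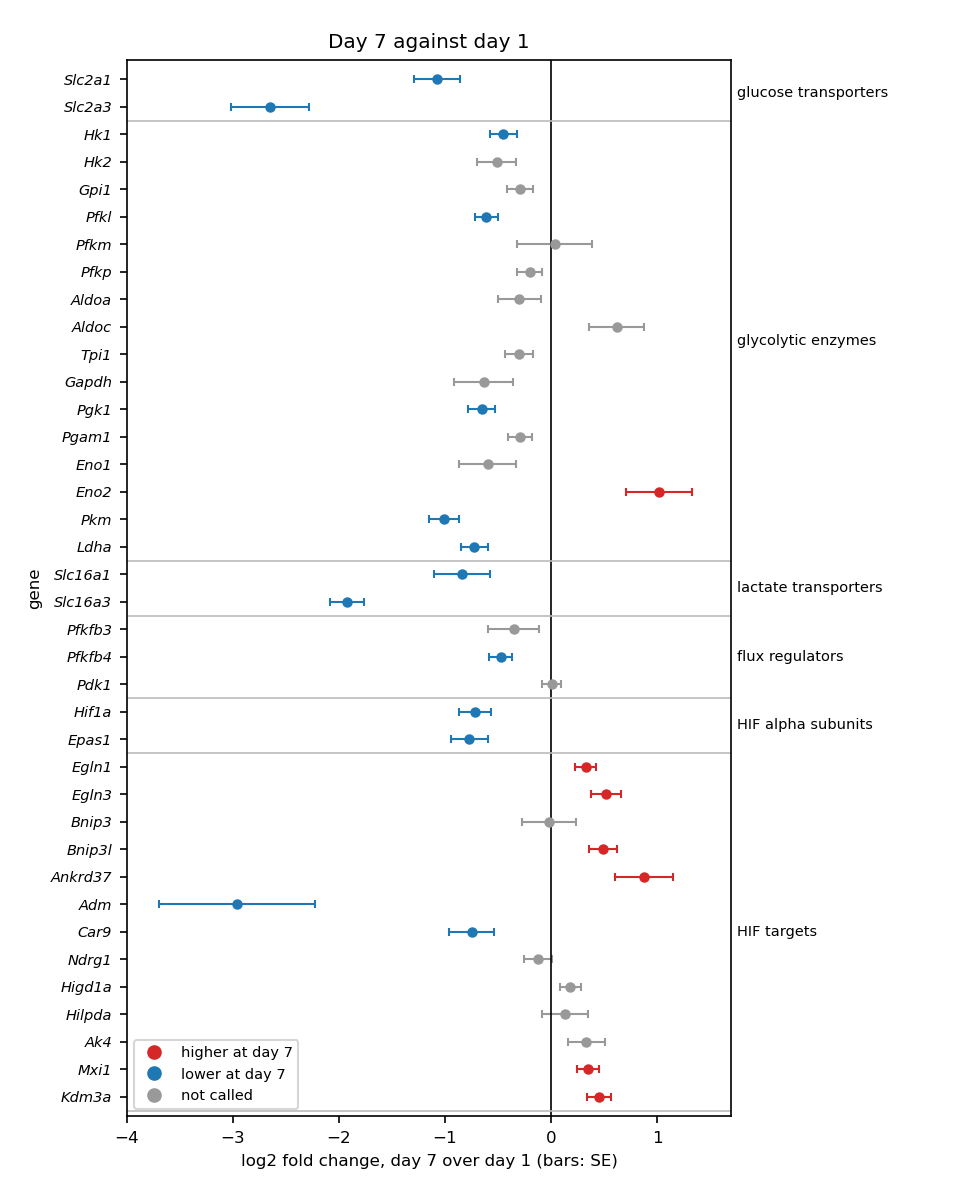
Points are log2 fold changes of day 7 over day 1 with bars of 1 standard error, by role, in red for genes called higher at day 7, blue for genes called lower and grey for the rest. All 6 transporters and HIF alpha subunits are blue, between -2.65 for Slc2a3 and -0.71 for Hif1a, and 6 of 13 HIF targets are red.

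Ldha had 531, 627 and 508 CPM at day 7 and 941, 902 and 911 CPM at day 1 (-0.72 ± 0.13, adjusted p = 0.00349). Kdm3a, at 53.1, 60.0 and 50.8 CPM at day 7 and 42.1, 38.4 and 39.4 CPM at day 1, rose by 0.45 ± 0.12 (adjusted p = 0.0229). Mxi1 rose by 0.35 ± 0.10 (adjusted p = 0.0437), Egln1 by 0.33 ± 0.10 (adjusted p = 0.0406) and Egln3 by 0.52 ± 0.14 (adjusted p = 0.0323). With copies added, Gapdh (-0.69 ± 0.13, adjusted p = 0.00563), Eno1 (-0.60 ± 0.15, adjusted p = 0.0191) and Pgam1 (-0.39 ± 0.11, adjusted p = 0.0403) were lower too, which makes 8 enzymes lower. Slc2a1, Slc2a3, Pfkl, Pgk1, Pkm, Ldha, Slc16a3, Hif1a and Epas1 were called in all 6 fits that each dropped 1 library of day 7 or day 1. Of the other genes lower at day 7, Pfkfb4 was called in 4 of those 6 fits, Adm in 2, Hk1 and Car9 in 1 each and Slc16a1 in 0. Of the genes higher at day 7, Bnip3l and Kdm3a were called in 3, Egln3 in 2 and Egln1, Mxi1, Ankrd37 and Eno2 in 1 each. The 21 calls dropped to 12, 10 and 11 without day 1 replicate 1, 2 and 3, and to 10 without day 7 replicate 2. All 8 neutrophil markers fell in this comparison, as given above.

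Mean log2 CPM per library was compared for the 2 largest groups. Relative to day 0, the 16 glycolytic enzymes averaged 0.26, 0.35, 0.05 and -0.06 at day 1, 3, 5 and 7, and 0.16, 0.25, -0.06 and -0.17 with the copies added. The 13 HIF targets averaged 0.32, 0.33, -0.01 and 0.30, so their mean was much the same at day 7 and at day 1. Without Adm, the other 12 targets averaged 0.11, 0.28, 0.18 and 0.33. At day 7 the targets lay at 0.33, 0.32 and 0.25 in the 3 libraries and the enzymes at -0.05, 0.08 and -0.21, so each library had targets above day 0 by more than enzymes. The 2 glucose transporters averaged 1.49, 1.04, 0.18 and -0.31, the lactate transporters 0.98, 0.69, -0.25 and -0.41, and the HIF alpha subunits 0.83, 0.63, 0.32 and 0.07. These means are descriptions and no test was run on them.

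**Figure D5:**
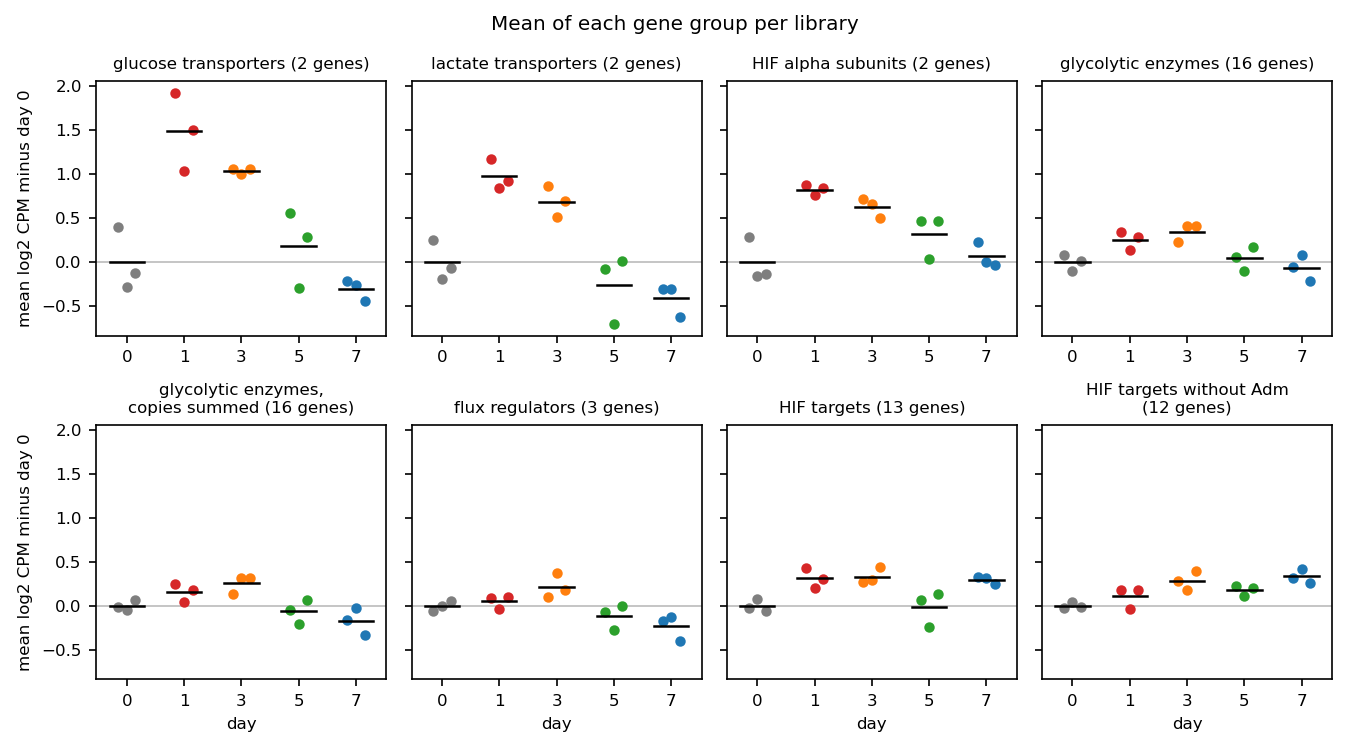
Each point is a library's mean log2 CPM over a group of genes minus the mean of the 3 day 0 libraries, with the mean of each day as a line. Transporters and HIF alpha subunits are highest at day 1. The 13 HIF targets average 0.32, 0.33 and 0.30 at day 1, 3 and 7, and without Adm 0.11, 0.28 and 0.33. At day 7 the glycolytic enzymes lie at -0.06 as deposited and at -0.17 with copies summed.

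Between neighbouring times few members passed the test. At day 3 against day 1, 0 members were called by edgeR and 0 by DESeq2, where edgeR called 0% of genes higher and 0.00584% lower and 2199 genes had an unadjusted p under 0.05. All day 3 libraries lay above those of day 1 for 5 members and below for 4, as for 11.6% and 13.2% of all genes. Adm, at 6.33, 17.1 and 11.4 CPM at day 3 and 65.4, 50.1 and 21.1 CPM at day 1, did not overlap (-1.97 ± 0.71, adjusted p = 0.281). At day 5 against day 3, 0 members rose and 1 fell, Slc16a3 as given above, where 0.00584% of genes rose and 0.0175% fell. That call was made in 2 of 6 fits with 1 library dropped. DESeq2 called 11 members here, the other 10 being Pfkl, Tpi1, Pgk1, Pgam1, Pkm, Ldha, Pfkfb4, Bnip3l, Adm and Car9. Of the 38 members, 18 had every day 5 library below every day 3 library, and 2 had every one above, as had 11.9% and 9.72% of all genes. Pkm had 727, 553 and 720 CPM at day 5 and 950, 1113 and 1125 CPM at day 3 (-0.67 ± 0.14, edgeR adjusted p = 0.123), and Car9 2.24, 2.09 and 1.93 CPM at day 5 and 3.28, 5.16 and 3.76 CPM at day 3 (-0.96 ± 0.21, edgeR adjusted p = 0.141). At day 7 against day 5, 0 members were called by either tool, where edgeR called 0% of genes higher and 0.00584% lower and 1573 genes had an unadjusted p under 0.05. All day 7 libraries lay above those of day 5 for 2 members and below for 3, as for 5.68% and 5.46% of all genes.

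Other genes of both pathways were counted beside the 38. Of 30 tested among 32 further genes of glycolysis, pyruvate use and sugar side paths, 2 rose and 0 fell at day 1 against day 0, where 4.22% of all genes rose. These were Hk3, the hexokinase of myeloid cells (0.69 ± 0.19, adjusted p = 0.0476), and Pgd of the pentose phosphate pathway (0.54 ± 0.12, adjusted p = 0.0208). At day 7 against day 1, where 8.59% of all genes fell, 3 of the 30 fell and 0 rose: Hk3 by 1.63 ± 0.20, Pgd by 0.63 ± 0.12 and the glycogen phosphorylase Pygl by 0.51 ± 0.13. At day 7 against day 0, where 3.94% of all genes fell and 3.1% rose, Hk3 and Pygl fell and Pdk3, a relative of Pdk1, rose by 0.50 ± 0.14. Of 34 tested among 35 further genes of the HIF pathway, 6 rose and 1 fell at day 1, where 4.22% of all genes rose and 3.36% fell. Those with the largest changes were Hmox1, which breaks down heme (1.42 ± 0.25), the transferrin receptor Tfrc (1.23 ± 0.28), the repressor Bhlhe40 (1.01 ± 0.15) and Fam162a (0.79 ± 0.21), and the histone demethylase Kdm4b fell by 0.35 ± 0.09. Fam162a and Bhlhe40 also rose at day 3, by 1.12 ± 0.21 and 0.95 ± 0.15, where 0.595% of all genes rose. At day 7 against day 1, 3 of these 34 rose, Ddit4, Edn1 and Kdm4b, and 5 fell, where 5.75% of all genes rose and 8.59% fell. Among those that fell, Stc1 fell by 1.52 ± 0.47, Hmox1 by 1.18 ± 0.25 and Tfrc by 0.96 ± 0.27.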

How the data were processed

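The authors deposited estimated counts per gene symbol, which, per the submitters' processing notes, come from kallisto 0.43. Index, annotation, build and use of strand are not given in the sources. These expected counts were whole numbers as deposited. Per the labels' protocols, muscle and fat were removed and total RNA went into an mRNA library kit. Each file had 30307 rows, and 26 with a date for a symbol were left out.

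Genes were kept with edgeR 4.0.16 (filterByExpr, minimum count 10) in R 4.3.3, scaled by TMM and fitted with 1 robust quasi-likelihood model over all 15 libraries, with 5 times as groups. Contrasts between times are two-sided. The common biological coefficient of variation was 30.9%, far above counting error at these depths. The fit was also run on simulated data. These varied less between libraries than the real data, so they cannot show how well it finds changes here. Mean log2 CPM used a prior count of 2. Copies were found with BLAST+ 2.17.0 between GENCODE M21 transcripts (at least 95% identity over 500 bases), and shares per length use its longest coding transcript. Alternatives were RLE scaling, no filter, DESeq2 1.42.0, fits on the libraries of 2 times, a replicate block, left-out libraries and summed copies, the last chosen after seeing the data.

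The members and lists were chosen with earlier results of these data known. Every called member is named, and of the wider lists Egln2 and up to 4 called genes per direction with the largest change. A result of the wider lists is not reported here.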

Additional observations from a re-analysis of the deposited data

How the results depend on the processing

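RLE scaling and leaving out the filter on low counts kept every count of called members within 1.5 times its main value. DESeq2 called 12 members at day 3, 4 at day 5 and 8 at day 7 against day 0. It called 11 at day 5 against day 3, and 29 over time. Against day 0, those that edgeR did not call were Ldha, Epas1 and Mxi1 at day 1. They were Gapdh, Pgk1, Pgam1, Pkm, Car9 and Ak4 at day 3. At day 5 they were Eno1, Pfkfb4 and Bnip3l, and at day 7 Hk1, Pfkfb4, Ankrd37 and Higd1a. A replicate block left 0 at day 5 and 2 at day 7 against day 0. Samples with the same number correlated at -0.729 to 0.486, over 0.1 in 13 of 30 pairs, and not every sample correlated best with its own number. The labels do not say what a shared number means. The correlations are of deviations from means of only 3 libraries, so they cannot decide whether the numbers pair the samples. Fits on the libraries of 2 times gave 0 at day 5 and 1 at day 7 against day 0, 0 at day 5 against day 3 and 12 at day 7 against day 1. With day 0 replicate 1 alone as day 0 the counts were 0, 0, 0 and 1 at day 1, 3, 5 and 7. Without day 5 replicate 2 and day 7 replicate 3 they were 2 at day 7 against day 0 and 0 at day 5 against day 3.

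With each library left out in turn, day 1 against day 0 had 2 to 14 calls, day 3 had 0 to 11, day 5 had 0 to 3 and day 7 had 1 to 7. Day 5 against day 3 had 0 to 1 and day 7 against day 1 had 10 to 16. The day 1 count was 2 when day 0 replicate 2 was out, 3 when day 0 replicate 3 was out, and 4, 7 and 6 when day 1 replicate 1, 2 or 3 was out. The day 3 count was 0 when day 0 replicate 2 or 3, or day 3 replicate 1 or 2, was out, and 2 when day 3 replicate 3 was out. The day 7 count was 1 when day 0 replicate 3, day 7 replicate 2 or day 7 replicate 3 was out, 2 when day 0 replicate 2 was out, and 7 when day 0 replicate 1 or day 7 replicate 1 was out. The cause of these shifts was not tested. Summing copies lowered the day 1 mean of the glycolytic enzymes to 0.16. It also turned the sign of Gapdh, to -0.14 at day 5 and -0.40 at day 7 against day 0, and to 0.024 at day 3 against day 1. The deposited counts gave 0.78, 0.45 and -0.031, and none of these changes was called.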
